A study of Homo sapiens with 6 samples.

Results

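Interferon-stimulated genes and sensors of foreign RNA were followed in Huh7 cells, a human liver cancer line of hepatocellular origin. They are 48 genes chosen by name, of the 27689 gene symbols in the table, and no measured value entered the choice. All 48 were found, on 128 of the 63714 transcript rows. By role they comprise 7 sensors and adaptors and 5 transcription factors, and the rest are effectors or other induced genes. The 6 libraries of polyadenylated RNA fell into 3 labelled NACER_ASO, in which the long non-coding RNA NACER was knocked down, and 3 labelled NC. The genotype field gives NACER for the first group and NC for the second, and all 6 libraries come from the same cell line. Dose, time and the meaning of the abbreviations are not stated in the labels. Each library also carries a set number, and sets 2, 5 and 6 hold 1 library of each group. The labels do not say whether sets or libraries were separate cultures. Every p-value here thus reflects library-to-library spread, which may be technical in part. In the comparisons between sets this is only the spread within sets, and it does not measure how far repeats of a set would differ.

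Cells detect foreign or misplaced double-stranded RNA through cytosolic helicases, which signal through the mitochondrial adaptor MAVS to the transcription factor IRF3 and so to the interferon genes. Secreted interferon acts back on its receptor, and a complex that contains STAT2 and IRF9 then binds a short promoter motif, the interferon-stimulated response element (ISRE). The genes so induced block viral entry, translation and replication, conjugate the ubiquitin-like protein ISG15 to targets, and include the sensors themselves.

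Promoter sequences are given first, because the members differed in this motif and also in their levels between sets. RefSeq promoter windows of the GRCh38.p14 assembly, running from 250 bases before to 50 bases after a gene's start, matched 39 of the 48 genes (DDX58 under its current symbol RIGI). The ISRE core was searched as GAAA, any 2 bases and GAAA again, on both strands, so that TTTC, any 2 bases and TTTC counts as well, and overlapping matches were each counted. It was present in 23 of the 39 windows (59.0%), compared with 996 of 27305 RefSeq promoters (3.65%), and 14 members had more than 1 match. The GAS core, a motif of the interferon-gamma response, was searched as TTCNNNGAA and was present in 9 of 39 windows (23.1%), compared with 7.88% of all promoters. The genes were chosen by name as interferon-stimulated genes and sensors, so an excess over all promoters comes with that choice and is no result of these libraries. A match is a run of letters, not a measured binding site, and a window without one says only that these letters are not in it.

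The windows below belong to 5 genes on which the results turn, and capitals mark each ISRE core. ISG15 and IFITM3 had their lowest levels in set 5, UBE2L6 had its highest level there, and IFI6 and IFIH1 were the members with every NACER_ASO library above every NC library. ISG15 held 2 overlapping matches (chr1:1013247-1013546, plus strand) and IFITM3 held 2 (chr11:320811-321110, minus strand). IFI6 held 3 (chr1:27672143-27672442, minus strand) and IFIH1 held 3 (chr2:162318635-162318934, minus strand), the first 2 of which overlap. UBE2L6 held 0 (chr11:57567886-57568185, minus strand).
ISG15: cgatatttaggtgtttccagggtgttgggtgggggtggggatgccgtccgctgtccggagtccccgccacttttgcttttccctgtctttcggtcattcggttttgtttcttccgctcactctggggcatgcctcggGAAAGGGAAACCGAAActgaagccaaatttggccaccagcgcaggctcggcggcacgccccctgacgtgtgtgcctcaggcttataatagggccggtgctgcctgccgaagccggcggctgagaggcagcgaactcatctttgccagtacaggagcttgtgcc
IFITM3: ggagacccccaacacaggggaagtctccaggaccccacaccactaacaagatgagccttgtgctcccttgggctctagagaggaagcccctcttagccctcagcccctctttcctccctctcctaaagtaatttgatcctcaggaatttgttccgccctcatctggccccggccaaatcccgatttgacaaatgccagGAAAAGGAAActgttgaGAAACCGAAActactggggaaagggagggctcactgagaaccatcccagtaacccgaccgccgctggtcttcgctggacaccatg
IFI6: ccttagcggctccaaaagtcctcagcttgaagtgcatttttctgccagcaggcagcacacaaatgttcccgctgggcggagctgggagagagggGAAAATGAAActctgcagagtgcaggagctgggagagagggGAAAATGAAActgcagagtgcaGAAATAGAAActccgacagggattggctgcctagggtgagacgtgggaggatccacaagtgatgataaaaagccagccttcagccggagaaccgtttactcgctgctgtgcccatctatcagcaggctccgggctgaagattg
IFIH1: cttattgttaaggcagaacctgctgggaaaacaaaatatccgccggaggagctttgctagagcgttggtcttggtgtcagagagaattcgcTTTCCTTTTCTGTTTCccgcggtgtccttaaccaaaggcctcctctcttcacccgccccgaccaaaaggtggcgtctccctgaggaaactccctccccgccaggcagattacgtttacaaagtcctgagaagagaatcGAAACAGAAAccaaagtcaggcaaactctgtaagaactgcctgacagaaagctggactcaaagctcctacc
UBE2L6: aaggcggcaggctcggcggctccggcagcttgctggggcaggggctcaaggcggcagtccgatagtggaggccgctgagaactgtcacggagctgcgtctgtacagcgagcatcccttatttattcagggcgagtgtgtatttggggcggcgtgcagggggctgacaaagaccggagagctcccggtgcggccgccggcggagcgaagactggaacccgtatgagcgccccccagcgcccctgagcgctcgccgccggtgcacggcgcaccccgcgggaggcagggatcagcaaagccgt

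All values are FPKM, that is, fragments per kilobase of transcript after scaling for library size, summed over the transcripts of a gene. Differences are on the log2(FPKM + 1) scale, NACER_ASO minus NC, which understates the change of low genes. The libraries held between 12738 and 14635 genes with at least 1 FPKM. From the low values the depth was put at about 21.9 to 28.1 M fragments in the NACER_ASO libraries and 15.6 to 24.5 M in NC, with NC set 2 the shallowest. All 10 hepatocyte genes listed as markers passed the filter of at least 1 FPKM in at least 3 libraries. Their summed level was 1361 to 6288 FPKM in NACER_ASO and 1399.6 to 6136 FPKM in NC. Of 7 endothelial and stromal markers 1 passed, and of 10 immune markers 5 passed.

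Of the 48 genes, 34 passed the filter, and 0 of these passed only through the NACER_ASO libraries. The other 14 were low: the sensors DHX58 and TLR3, the transcription factor IRF7, and OAS2, OASL, IFIT1, BST2, RSAD2, SAMD9L, HERC5, HERC6, IFI44, IFI44L and XAF1. Several of these are textbook products of a strong interferon response. RSAD2, which encodes viperin, did not exceed 0.111 FPKM, XAF1 did not exceed 0.196 FPKM, and IFI44 was listed at 0 in 5 of the 6 libraries. IFIT1, which binds viral RNA ends, had 2.23, 0.466 and 0.294 FPKM in NACER_ASO sets 2, 5 and 6, against 1.14, 0.379 and 0.239 FPKM in NC sets 2, 5 and 6. The highest values of both groups were therefore in set 2. The 7 interferon genes listed (IFNB1, IFNA1, IFNL1, IFNL2, IFNL3, IFNG and IFNE) did not exceed 0.2345 FPKM in any library.

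**Figure D1:**
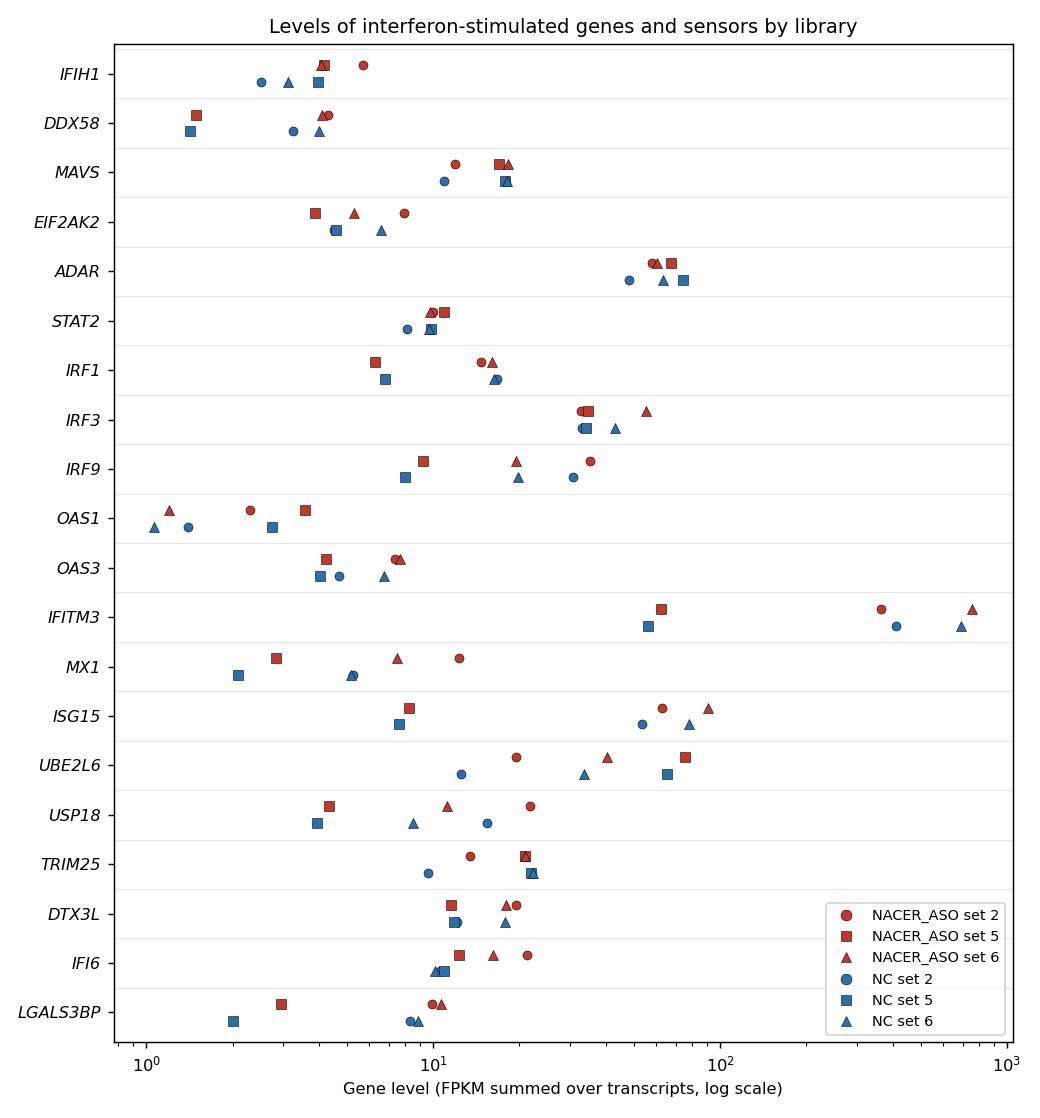
Level of the named genes in each library, in FPKM on a log axis, ordered by role. Red points are the 3 NACER_ASO libraries and blue points, drawn under them, the 3 NC libraries, with 1 shape per set. For ISG15 the libraries of set 5 lie at 8.24 and 7.58 FPKM, far from the others, whose lowest value is 53.5 FPKM.

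The first comparison asked whether these genes differed between knockdown and NC. The NACER_ASO library lay above its NC partner in 27, 22 and 26 of the 34 members in sets 2, 5 and 6 (79.4%, 64.7% and 76.5%), beside 59.1%, 54.5% and 62.9% of all genes. The differences were mostly largest in set 2, and 0 members passed adjustment. Limma called 0 of 13576 genes (0%) and so 0 of the 34 members, whose smallest adjusted p was 0.999994. This fit had no term for the set, so the spread between sets entered its error and little could be called. For ISG15 its SE was 1.14, against 0.060 with the set as a block. In this fit 0 members had an unadjusted p under 0.05. Blocking on the set called 0 members too, and their smallest limma adjusted p was 0.322. In the blocked fit 7 members with an unadjusted p under 0.05 were higher, against 8.85% of all genes, and 0 were lower, against 3.57%. In NACER_ASO 15 members were higher in all 3 sets, against 27.2% of all genes, and 1 was lower in all 3, against 11%. In sets 2, 5 and 6 the members' median difference was 0.31, 0.05 and 0.07, beside 0.05, 0.01 and 0.06 over all genes. With libraries rescaled by median of ratios, 9 members (26.5%) were higher in all 3 sets and 1 lower, beside 19.1% and 16.8% of all genes. The difference was largest in set 2 for 24 of the 34 members, with the share over all genes not counted. That set holds NC set 2, the shallowest library by the rough estimate from low values. The part of depth in the result was not tested.

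In IFIH1 and IFI6 every NACER_ASO library lay above every NC library, as did 1.2% of all genes, and 0 members had the opposite order, against 0.368%. IFIH1, which encodes MDA5, a sensor of long double-stranded RNA, had 5.71, 4.18 and 4.07 FPKM in NACER_ASO sets 2, 5 and 6, against 2.51, 3.98 and 3.12 FPKM in NC sets 2, 5 and 6. The groups were separated by a narrow gap, since NC set 5 lay just below NACER_ASO set 6. The difference of 0.43 had an SE of 0.18 with the set block (blocked limma p = 0.04999, adjusted p = 0.403), and the exact permutation test (two-sided) gave p = 0.1, the smallest that 3 against 3 libraries allow. Without both libraries of set 2 the blocked difference was 0.18. IFI6, an interferon-induced protein that opposes apoptosis, had 21.2, 12.3 and 16.1 FPKM in NACER_ASO, against 10.5, 10.9 and 10.2 FPKM in NC. The NC libraries lay close together and NACER_ASO set 5 lay nearest to them. Its difference was 0.57 (95% confidence interval 0.21 to 0.94 with the block, blocked limma adjusted p = 0.322), with an exact permutation p of 0.1.

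The other sensors did not share this order. DDX58, which encodes RIG-I, a sensor of short double-stranded RNA ends, had 4.31, 1.49 and 4.11 FPKM in NACER_ASO, against 3.26, 1.43 and 4.01 FPKM in NC. It was higher in all 3 sets by a difference of 0.13, but both libraries of set 5 lay below all others, so the groups overlapped. MAVS, the adaptor that both helicases use, had 11.9, 16.98 and 18.2 FPKM in NACER_ASO, against 10.9, 17.8 and 18.0 FPKM in NC, a difference of 0.02. EIF2AK2, the kinase PKR that stops translation on binding double-stranded RNA, had 7.93, 3.86 and 5.31 FPKM in NACER_ASO, against 4.51, 4.58 and 6.56 FPKM in NC. It was higher in NACER_ASO in set 2 and lower in sets 5 and 6, with a mean difference of 0.08. DHX58, which encodes LGP2, a regulator of the other helicases, lay below the filter at 1.05, 0.457 and 0.463 FPKM in NACER_ASO, against 2.29, 0.397 and 0.407 FPKM in NC. TLR3, the endosomal receptor for double-stranded RNA, had highest values of 0.745 FPKM in NACER_ASO and 0.825 FPKM in NC.

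ADAR edits adenosines in double-stranded RNA and so hides the cell's own transcripts from these sensors. It had 57.9, 67.4 and 60.2 FPKM in NACER_ASO, against 48.1, 74.4 and 63.3 FPKM in NC, a difference of 0.02. Its long form, p150, is made from an interferon-inducible promoter, and its short form, p110, is made constitutively. The p150 transcripts (NM_001111, NM_015840 and NM_015841) took 62.5%, 58.6% and 48.6% of the gene's FPKM in NACER_ASO sets 2, 5 and 6, against 49.2%, 63.7% and 51.6% in NC. The share was thus higher in NACER_ASO in set 2 and lower in sets 5 and 6. The p110 transcripts (NM_001025107 and NM_001193495) summed to 21.7, 27.9 and 30.9 FPKM in NACER_ASO, against 24.4, 27.0 and 30.7 FPKM in NC.

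Among the transcription factors, 1 of the 4 tested was higher in all 3 sets and 1 lower. STAT2, part of the complex that binds the ISRE, had 10.01, 10.9 and 9.73 FPKM in NACER_ASO, against 8.13, 9.87 and 9.66 FPKM in NC. The groups overlapped, and the difference was 0.14 (blocked limma SE 0.084, adjusted p = 0.533). IRF9, the DNA-binding part of that complex, had 35.2, 9.22 and 19.5 FPKM in NACER_ASO, against 30.8, 7.99 and 19.8 FPKM in NC. Its levels followed the set and not the group, with a difference of 0.12. IRF1, which also responds to interferon-gamma, was the member that was lower in all 3 sets, at 14.6, 6.26 and 16.0 FPKM in NACER_ASO, against 16.8, 6.78 and 16.2 FPKM in NC, a difference of -0.10 (blocked limma SE 0.073, adjusted p = 0.587). IRF3, which turns on the interferon genes downstream of MAVS, had 32.6, 34.6 and 55.4 FPKM in NACER_ASO, against 33.0, 34.1 and 43.0 FPKM in NC. Set 6 was high in both groups, and the locus overlaps BCL2L12, so reads may be divided between them. IRF7, the amplifier of the interferon response, did not exceed 0.266 FPKM.

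**Figure D2:**
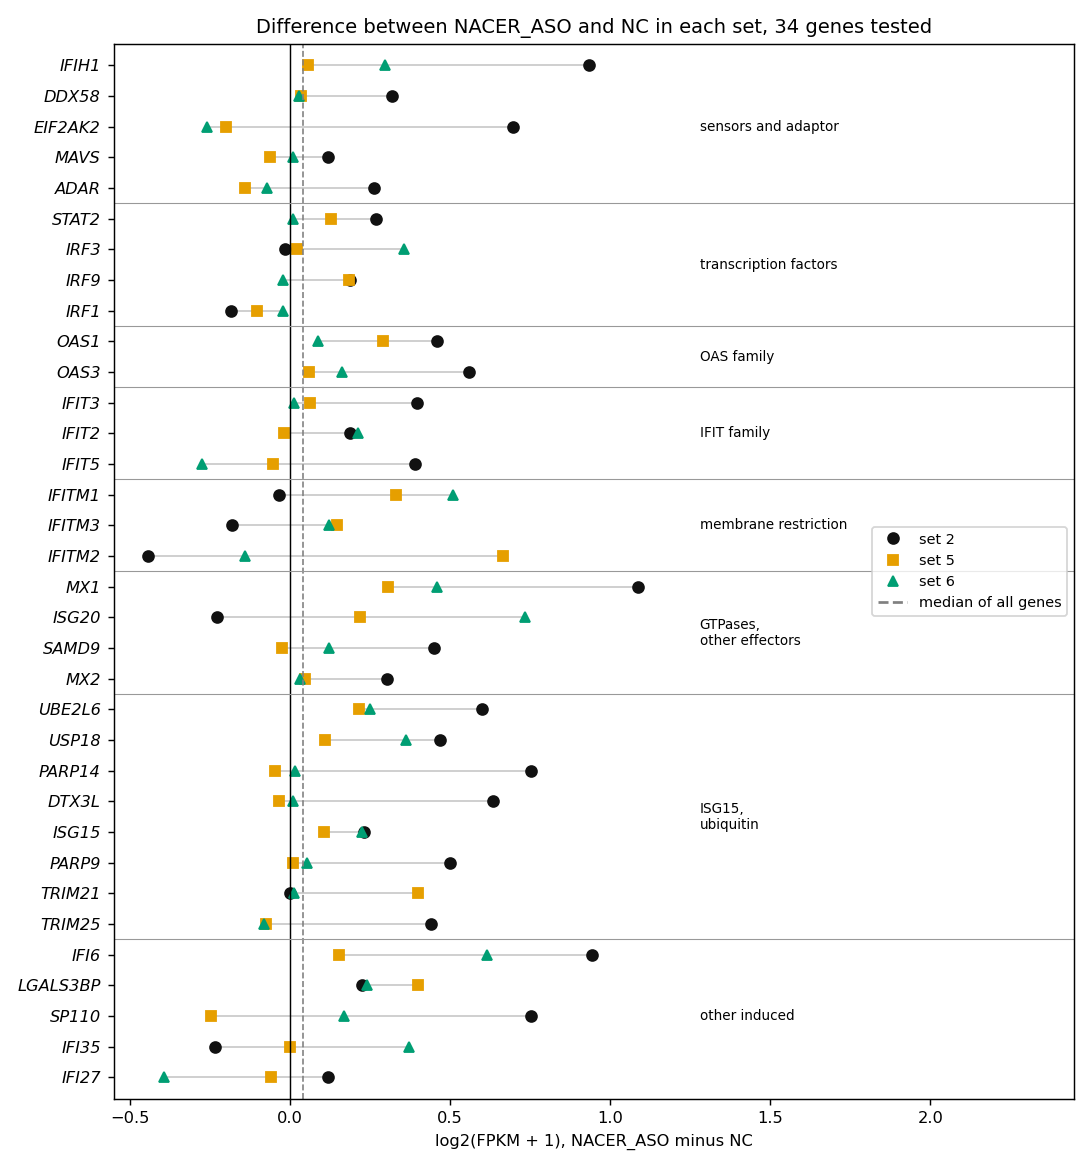
Difference between NACER_ASO and NC within each set, log2(FPKM + 1), for the 34 genes that passed the filter, with the median of all genes as a dashed line. Each gene has 1 point per set. The circles of set 2 lie farthest to the right in 24 of the genes, and the share over all genes was not counted.

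Of the OAS family, which makes the short oligoadenylates that activate RNase L, both tested members were higher in all 3 sets. OAS1 had 2.30, 3.57 and 1.20 FPKM in NACER_ASO, against 1.40, 2.74 and 1.07 FPKM in NC, a difference of 0.28 (blocked limma adjusted p = 0.407). OAS3 had 7.38, 4.24 and 7.69 FPKM in NACER_ASO, against 4.68, 4.03 and 6.76 FPKM in NC, a difference of 0.26 (blocked limma adjusted p = 0.441). The groups overlapped in both genes. Leaving out 1 library, which unbalances the sets between the groups, moved the difference between 0.025 and 0.55 for OAS1 and between 0.13 and 0.50 for OAS3, and with the block and without set 2 it was 0.19 and 0.11. In the IFIT family, whose members bind viral RNA or each other, 1 of 3 tested was higher in all 3 sets. The difference was 0.16 for IFIT3, 0.13 for IFIT2 and 0.02 for IFIT5. Of the IFITM proteins, which block the fusion of virus and cell membranes, 0 of 3 kept their sign. IFITM3, the most abundant member, had 363, 62.3 and 754 FPKM in NACER_ASO, against 412, 56.2 and 692 FPKM in NC. Its set means spanned a far wider range than its group means, and IFITM1, IFITM2 and IFITM3 are similar in sequence, so reads may be divided between them.

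MX1, a dynamin-like GTPase that traps viral nucleocapsids, had a mean difference of 0.62, next to 0.57 for IFI6. It had 12.3, 2.83 and 7.49 FPKM in NACER_ASO, against 5.27, 2.09 and 5.17 FPKM in NC. The NACER_ASO library was the higher in each set, but NACER_ASO set 5 lay below NC sets 2 and 6. The blocked interval was 0.22 to 1.02 (blocked limma adjusted p = 0.322). The difference was 0.38 with the block and without both libraries of set 2. Leaving out 1 library in the same way gave a range of 0.21 (NACER_ASO set 2 left out) to 1.11 (NACER_ASO set 5 left out), and 0.28 when NC set 5 was left out. MX2, a related GTPase, differed by 0.13, SAMD9 by 0.18 and the exonuclease gene ISG20 by 0.24.

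The ISG15 system gave 5 of 8 tested members higher in all 3 sets and 0 lower. ISG15, a ubiquitin-like protein, had 62.9, 8.24 and 91.1 FPKM in NACER_ASO, against 53.5, 7.58 and 77.8 FPKM in NC. The NACER_ASO library of each set lay a little above its NC partner, a difference of 0.19 (blocked limma SE 0.060, adjusted p = 0.346). UBE2L6, the enzyme that carries ISG15 to its ligase, had 19.5, 75.8 and 40.3 FPKM in NACER_ASO, against 12.5, 65.1 and 33.7 FPKM in NC, a difference of 0.36 (blocked limma SE 0.091, adjusted p = 0.322). USP18, which removes ISG15 and also dampens the interferon receptor, had 21.7, 4.33 and 11.2 FPKM in NACER_ASO, against 15.4, 3.93 and 8.49 FPKM in NC, a difference of 0.31 (blocked limma adjusted p = 0.338). The groups overlapped in each, and the sets lay farther apart than the groups. Of the ISG15 ligase gene HERC5 and its relative HERC6, both below the filter, the highest values were 1.40 and 1.72 FPKM, each in NACER_ASO set 5.

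The ubiquitin ligase gene TRIM25, which activates RIG-I, had 13.4, 20.9 and 20.9 FPKM in NACER_ASO, against 9.61, 22.0 and 22.2 FPKM in NC, so that set 2 went the other way from sets 5 and 6. TRIM21, an antibody receptor and ubiquitin ligase, was higher by 0.40 in set 5 and by 0.002 and 0.01 in sets 2 and 6. DTX3L, a ubiquitin ligase gene, had 19.4, 11.5 and 17.9 FPKM in NACER_ASO, against 12.1, 11.8 and 17.8 FPKM in NC. It and its partner PARP9, whose gene overlaps it, differed by 0.63 and 0.50 in set 2 and by at most 0.05 in size in sets 5 and 6. PARP14, an ADP-ribosyltransferase, differed by 0.75 in set 2, and by -0.05 in set 5 and 0.02 in set 6. LGALS3BP, a secreted glycoprotein induced by interferon, had 9.91, 2.96 and 10.6 FPKM in NACER_ASO, against 8.32, 2.002 and 8.86 FPKM in NC. It was higher by 0.29 (blocked limma adjusted p = 0.334), and was unlike most members in that set 5 showed the largest difference. SP110, a nuclear body protein gene, differed by 0.23, IFI35 by 0.05 and IFI27 by -0.11, each with mixed signs between the sets.

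Single transcripts were then compared. Of the members' 128 transcripts, 57 of 33 genes passed the filter and 19 were listed at 0 in all libraries. Limma called 0 of 23390 transcripts (0%), with a smallest adjusted p of 0.109, and 220 had an unadjusted p under 0.05. With the block it also called 0 transcripts, and 1415 had such a p. Of the 57, 21 were higher in all 3 sets, beside 19.3% of all transcripts tested, and 1 was lower in all 3, beside 11.7%.

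In MX1, 1 transcript stood apart from the others. NM_001144925, which starts at 42792485 on chromosome 21 of hg19, 5′ of the others, had 3.66, 1.70 and 2.90 FPKM in NACER_ASO sets 2, 5 and 6, against 0.0421, 0.214 and 0.196 FPKM in NC. Every NACER_ASO library lay above every NC library. The difference was 1.67 (blocked limma SE 0.25, adjusted p = 0.749), and with a pseudocount of 0.1 it was 3.53. The transcript passed the filter only through the NACER_ASO libraries and was picked for its small p, so its values are a description. The transcript that carried most of the gene's FPKM in NC, NM_002462, which starts at 42797958, had 7.96, 0.838 and 4.32 FPKM in NACER_ASO, against 4.71, 1.46 and 3.45 FPKM in NC, and was lower in NACER_ASO in set 5. Estimates of transcripts that share most of their exons are less certain than the gene sum.

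The same comparison in IFI6 showed its difference in both tested transcripts. NM_022872 had 5.30, 2.96 and 3.42 FPKM in NACER_ASO, against 1.73, 1.86 and 1.61 FPKM in NC, a difference of 0.81 (blocked limma SE 0.20, adjusted p = 0.749). NM_002038 had 14.7, 9.03 and 11.5 FPKM in NACER_ASO, against 7.90, 8.57 and 8.22 FPKM in NC, a difference of 0.44. In both transcripts every NACER_ASO library lay above every NC library. How many of all transcripts tested had that order, as NM_001144925 of MX1 did, was not counted. NM_022872 and the PARP9 transcript below were picked for their small p, so their values are a description. NM_022873, below the filter, had 1.21, 0.293 and 1.17 FPKM in NACER_ASO, against 0.908, 0.509 and 0.317 FPKM in NC. PARP9 NM_031458 had 2.97, 2.31 and 1.33 FPKM in NACER_ASO, against 1.44, 1.16 and 0.845 FPKM in NC, a difference of 0.55, with NACER_ASO set 6 below NC set 2.

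**Figure D3:**
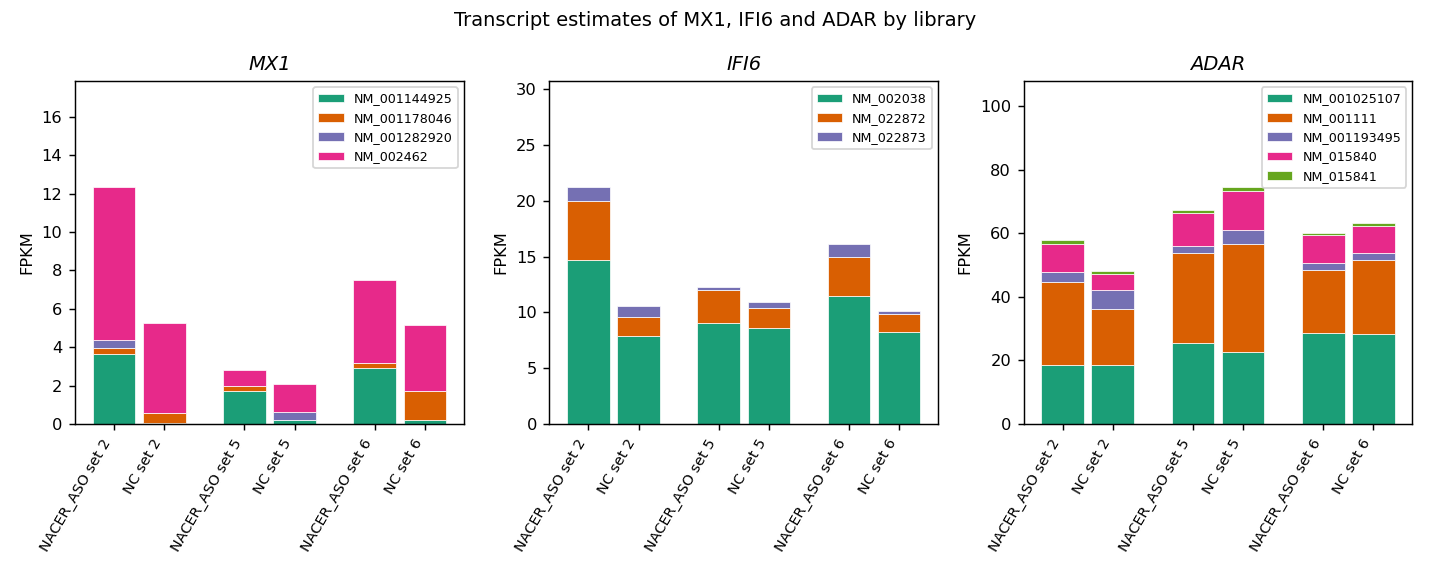
FPKM of the transcripts of MX1, IFI6 and ADAR in each library, with the NACER_ASO library left of the NC library in each set and 1 bar segment per transcript. The MX1 segment of NM_001144925 is 1.70 to 3.66 FPKM high in NACER_ASO and at most 0.214 FPKM in NC.

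The rest of the pathway was read from 2 lists of genes outside the 48. Of 33 genes that act upstream (interferons, their receptors, kinases, adaptors and inhibitors), 23 passed the filter, 4 (17.4%) were higher in all 3 sets and 0 lower, beside 27.2% and 11% of all genes, and limma called 0 with and without the block. Of 38 further interferon-stimulated genes, 28 passed the filter, 15 (53.6%) were higher in all 3 sets and 1, TRIM56, was lower, and limma again called 0 with and without the block. DDX60L, a helicase-like gene, had the smallest blocked p of this list, with 7.47, 5.23 and 4.82 FPKM in NACER_ASO, against 4.46, 3.85 and 3.49 FPKM in NC, a difference of 0.46 (blocked limma adjusted p = 0.309). Every NACER_ASO library lay above every NC library in DDX60L. DDX60, its relative, is among the 15 but passed the filter only through the NACER_ASO libraries, so it cannot count as support. Neither list was counted again with median-of-ratios scaling.

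The sets differed far more than the groups. The set accounted for a median of 92.7% of the sum of squares of a member and the group for 2.34%, beside 93.2% and 1.92% over all genes. IFI6 and IFIH1 were the exceptions, with 63.8% and 54.8% for the group. Limma's F test over the sets called 28 of the 34 members, against 81.2% of all genes. The 6 not called were IFIH1, EIF2AK2, STAT2, IFI6, PARP14 and DTX3L. In 21 members the highest set mean was at least 2 times the lowest, and set 5 was lowest in 23 members and highest in 6. How many of all genes did the same was not counted, so these counts do not show a trait particular to the members.

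In set 5, against the mean of sets 2 and 6, limma called 21 of 34 members lower, beside 46.6% of all genes, and 7 higher, beside 24.1%. The median over members was -0.69, beside -0.22 over all genes. With median-of-ratios scaling the median over all genes moved by more than 0.1, to -0.01, and the members were at -0.52 with 19 lower and 8 higher, beside 4739 lower and 4677 higher genes in all. IFITM3, IFITM2 and ISG15 had the most negative differences. IFITM3 had a mean of 59.3 FPKM in set 5, against 387 FPKM in set 2 and 723 FPKM in set 6, a difference of -3.14 (SE 0.086, limma adjusted p = 3.97e-06). ISG15 had 7.91 FPKM in set 5, against 58.2 FPKM in set 2 and 84.4 FPKM in set 6, a difference of -2.99 (SE 0.064, limma adjusted p = 2.02e-06). IFITM2 was lower by a difference of -3.03 and IFITM1 by -1.85, so all 3 IFITM genes tested were lower. All 3 IFIT genes tested were lower as well, at -0.98 for IFIT2, -1.03 for IFIT3 and -1.56 for IFIT5. USP18 (-1.49), IRF9 (-1.47), MX1 (-1.24), IRF1 (-1.17) and DDX58 (-0.998) were also lower.

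The members that were higher in set 5 included partners of the genes that were lower. MX2 had a mean of 16.5 FPKM in set 5, against 4.31 FPKM in set 2 and 5.39 FPKM in set 6, a difference of 1.59 (SE 0.097, limma adjusted p = 4.78e-05), whereas MX1, its neighbour on chromosome 21, was lower. UBE2L6 had 70.4 FPKM in set 5, against 16.0 FPKM in set 2 and 37.0 FPKM in set 6, a difference of 1.505 (SE 0.096, limma adjusted p = 5.49e-05), whereas ISG15, the protein it carries, was lower. OAS1 (0.76), IFI35 (0.72), TRIM25 (0.43), ADAR (0.31) and MAVS (0.26) were the other members called higher. The 28 calls kept their direction in every setting tried, and 21 of them passed in every one. Without NACER_ASO set 5, calls ended for MAVS (0.32), OAS3 (-0.40), PARP9 (-0.33), DTX3L (-0.30) and IFI27 (-0.58). Without NC set 5 they ended for MAVS (0.19), ADAR (0.19), TRIM25 (0.30) and IFI27 (-0.50), which left 4 members called higher. They also ended for MAVS without NACER_ASO set 6 (0.25) or NC set 6 (0.26), for ADAR without NACER_ASO set 6 (0.27) or without the filter, for TRIM25 and DTX3L without the filter, and for PARP9 and DTX3L with median-of-ratios scaling.

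**Figure D4:**
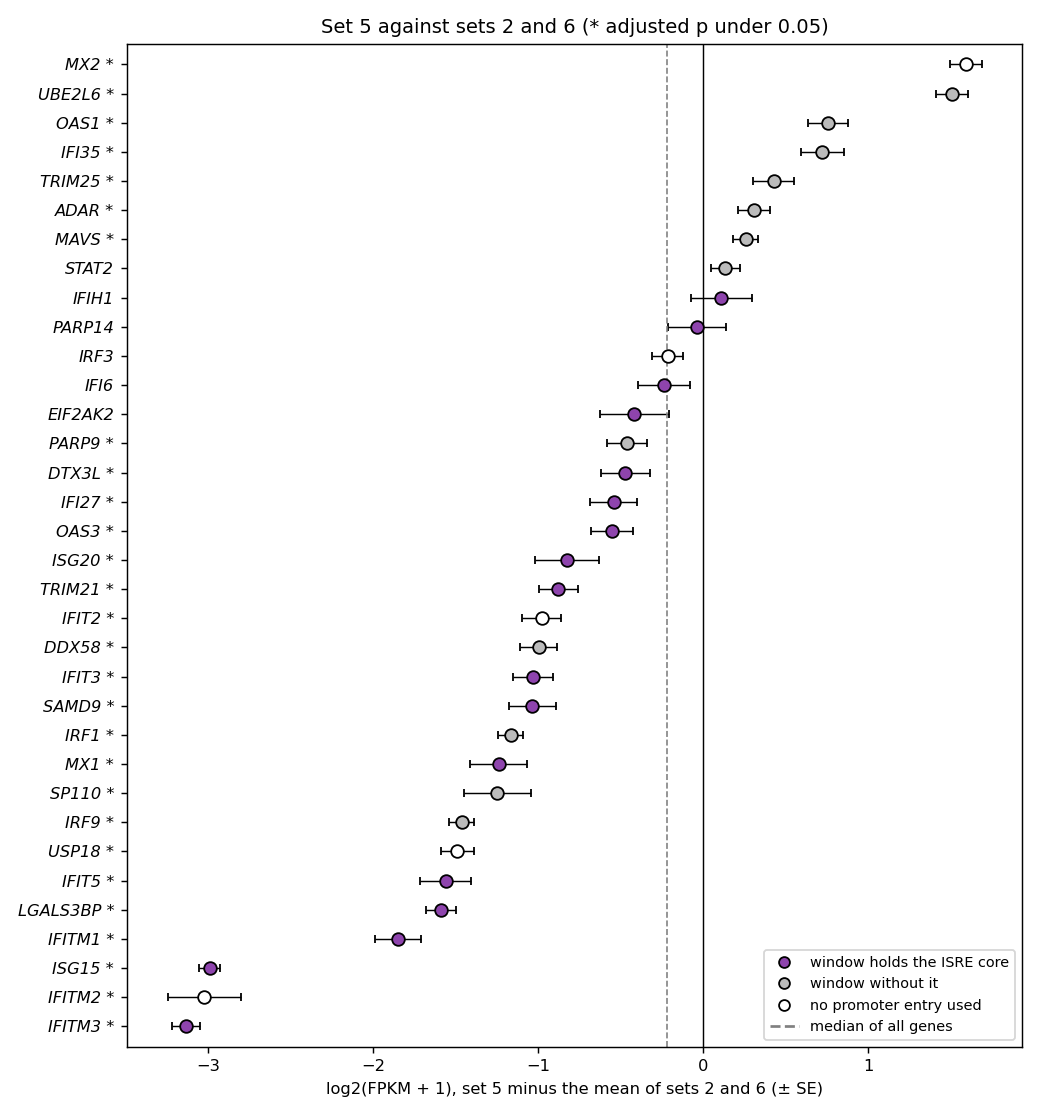
Level in set 5 minus the mean level of sets 2 and 6, on the log2(FPKM + 1) scale with the SE of the limma fit, for the 34 genes that passed the filter in order of size. Colour shows whether the promoter window holds the ISRE core, and the dashed line is the median of all genes. MX2 (1.59) and UBE2L6 (1.505) lie at the top and IFITM3 (-3.14) at the bottom.

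The ISRE core was then counted by these calls, with few windows in each class. It was in 13 of the 18 promoter windows of members lower in set 5 (72.2%) and in 4 of the 5 of tested members not called (80.0%). It was in 0 of the 6 windows of members higher in set 5, and MX2, also higher, had no window. Lower members thus did not hold the core more often than those not called. A link between the motif and the level in set 5 was not tested. Among all other genes tested it was in 2.72% of those lower, 2.51% of those higher and 2.36% of those not called. A core with 1 base between the repeats, GAAANGAAA on both strands, was searched after these counts had been seen. With either spacing, 15 of 18 windows of lower members (83.3%) and 3 of 6 windows of higher members held a match, those of OAS1, IFI35 and TRIM25 by the shorter spacing. The windows cover 1 annotated start per gene, and a motif outside them is not counted. ADAR, among the 6 higher members with a window, has several starts. On hg19 its p110 transcript NM_001025107 starts at 154600456 and its p150 transcripts at 154580724, so 1 window cannot hold both. The lack of a match in ADAR therefore need not cover its interferon-inducible promoter.

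In set 6, against set 2, limma called 10 members higher, beside 20.9% of all genes, and 3 lower, beside 27.3%. UBE2L6 (1.19), IFITM2 (1.01), IFITM3 (0.90), TRIM25 (0.87), TRIM21 (0.79), SP110 (0.75), PARP14 (0.65), MAVS (0.63), IRF3 (0.56) and ISG15 (0.53) were higher in set 6. USP18 (-0.84), IFI27 (-0.76) and IRF9 (-0.72) were lower in set 6. With median-of-ratios scaling the median over all genes was 0.13. Then 15 members were called higher and 3 lower, beside 4626 higher and 2739 lower of 13576 genes. Without NC set 2, SP110 (0.35) and PARP14 (0.27) no longer passed. Without NACER_ASO set 2, IFITM2 (0.66) and IFI27 (-0.59) no longer passed. Without NACER_ASO set 6 this held for IFI27 (-0.55) and SP110 (0.79), and without NC set 6 for PARP14 (0.48) and SP110 (0.71). A pseudocount of 0.1 ended the calls of IFITM2 and SP110, and leaving out the filter ended these and that of PARP14.

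Marker lists of other cell types were set beside these results. The summed immune markers were 539 FPKM in NACER_ASO set 5, against 79.6 and 138 FPKM in NACER_ASO sets 2 and 6, and 517 FPKM in NC set 5, against 81.2 and 116 FPKM in NC sets 2 and 6. LYZ, which encodes lysozyme, held 479 FPKM of that sum in NACER_ASO set 5 and 457 FPKM in NC set 5. Without LYZ the sum was 59.99 FPKM in NACER_ASO set 5, against 47.0 and 70.2 FPKM in NACER_ASO sets 2 and 6. In NC it was 60.6 FPKM in set 5, against 53.6 and 57.7 FPKM in sets 2 and 6. Set 5 was not apart in this sum, but CD68 made up most of it in every library. CD68 had 56.6 FPKM in NACER_ASO set 5 and 57.5 FPKM in NC set 5, so the sum says little of the other markers. CD14, CD79A, ITGAM and SPI1 were lower in set 5 than in set 2 in both groups. PTPRC, the pan-leukocyte gene, had a highest value of 0.950 FPKM, and NKG7 and LILRB1 were listed at 0 in all 6 libraries. The summed endothelial and stromal markers were 3.25 FPKM in NACER_ASO set 5 and 2.76 FPKM in NC set 5, and 4.59 to 14.4 FPKM in the other 4 libraries. Summed hepatocyte markers were highest in set 5 in both groups, with AFP the largest part, but the members differed. FGB was lowest in set 5 in both groups, and TTR and AHSG were lower in set 5 than in set 2. The part of these differences in the set result was not tested. In a bulk sample, fewer cells that express a gene and less RNA per cell cannot be told apart.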

How the data were processed

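RNA expression was analysed in 6 Huh7 libraries. The authors deposited FPKM values for RefSeq transcripts with hg19 loci, per the file headers. The submitters' processing notes name FastQC 0.11.5, Bowtie2 2.2.6, StringTie 1.3.3b and the hg19 build. How each tool was set, and whether strand was used, is not given in the sources used here. Libraries used 1 ug of RNA and a stranded, poly(A)-selecting kit, per the labels' protocols. FPKM is relative to the library total and divides reads among isoforms and near-identical copies. Whole reads were not recovered, since 28.6% to 41.0% of low values came within 2% of whole multiples, so depth is rough and no count model was fitted. The table held 0 unmapped value columns.

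FPKM was summed per symbol, and 13576 genes reaching 1 FPKM in 3 or more libraries were tested. The fit to log2(FPKM + 1) of all these genes was made in limma 3.58.1 (R 4.3.3), with a variance trend and no term but the group. Two-sided p-values had Benjamini-Hochberg adjustment at 0.05 over all genes. Set contrasts came from a fit of set and group, in which each set has 1 library of each group. Transcripts were fitted in the same way. Scripts were tested on simulated data. Set numbers, which the labels share between groups, pair the libraries: deviations from group means correlated at 0.901, 0.966 and 0.898 within sets 2, 5 and 6. The fit with the set as a block was an alternative, as were pseudocounts of 0.1 and 5, no filter or a filter of 5 FPKM, median-of-ratios scaling and leaving out libraries or sets.

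The genes, lists and tests were chosen with earlier results of these data known. Values per library were given, by rule, for tested sensors and transcription factors. Among other members the rule took the 8 with the smallest blocked p, the 5 with the highest mean and the 4 with the smallest p between sets, then all tested ADAR transcripts and 3 further transcripts by blocked p. Values of other genes in each library (IFIT1, DHX58, TLR3 and DDX60L) were added after they had been seen. The level of NACER is not analysed here, and the knockdown itself was thus not checked.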

Additional observations from a re-analysis of the deposited data

How the results depend on the processing

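The set number used as a replicate block changed no call among the members (0 called, smallest adjusted p = 0.322). Members higher in all 3 sets numbered 15 of 34, and also with pseudocounts of 0.1 and 5, but 9 with median-of-ratios scaling. The filter of 5 FPKM tests fewer genes and left 11, with the share over all genes not counted. Without a filter 21 of the 48 members were higher in all 3 sets and 2 lower, beside 5417 and 1894 of 27689 genes. In blocked fits without both libraries of a set, 0 members were called, but 3, 14 and 58 of all genes were called without set 2, 5 or 6. The cause was not tested. Members higher in both other sets then numbered 20, 21 and 16, and 6 were lower without set 2 and 2 without set 5. Signs agree more often over 2 sets than over 3, and the share over all genes was not counted. These counts therefore do not show a rise particular to the members. Leaving out 1 library unbalances the sets between the groups, so set differences enter those fits. The median difference over the members then ranged from -0.0086 (without NC set 5) to 0.49 (without NACER_ASO set 5). Members called higher in set 5 then numbered 4 to 7. Without the filter, 6 members were called lower in set 6 against set 2, beside 5936 of 23824 genes.

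Of 361 re-estimates of single group differences 48 changed sign. With median-of-ratios scaling these were ADAR at -0.055, IFITM3 at -0.043 and MAVS at -0.045. With the block and without set 2 they were ADAR at -0.11, DTX3L at -0.011, EIF2AK2 at -0.23, MAVS at -0.026 and TRIM25 at -0.077. IFITM3 was at -0.028 without set 5 and -0.017 without set 6 in such fits. Leaving out 1 library in turn gave ranges of -0.18 to 0.48 for DDX58, -0.15 to 0.29 for EIF2AK2, -0.39 to 0.59 for IRF9, -0.18 to 0.86 for USP18, -0.79 to 1.21 for ISG15, -1.04 to 1.05 for IFITM3. They were -0.20 to 0.20 for MAVS, -0.15 to 0.16 for ADAR, -0.49 to 0.29 for IRF1, -0.25 to 0.89 for UBE2L6, -0.28 to 0.30 for TRIM25, -0.11 to 0.26 for IRF3. For the rest they were -0.27 to 0.79 for LGALS3BP, -0.20 to 0.26 for NM_001111, -0.099 to 0.0997 for NM_015841, -0.078 to 0.24 for NM_001025107, -0.11 to 0.44 for NM_015840. Of 252 re-estimates of calls in set 5, 17 no longer passed and 0 changed sign, and of 117 between sets 6 and 2, 13 no longer passed and 0 changed sign. Values near 1 FPKM rest on few fragments, and by the rough depth estimate on the fewest in NC set 2.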
